A study of Mus musculus with 12 samples.

Results

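The genes described here are 35 genes of glycolysis and of the response to low oxygen, taken by name from a table of 54532 mouse genes measured by RNA sequencing of brain. The names matched 36 rows, because Aldoa had a second row, and all 36 rows were among the 17664 genes that passed the filter on low values and were tested. The 12 libraries formed 4 groups of 3. The treated mice were given 5-aminolevulinic acid (5-ALA), the first precursor of heme, at 20 mg/kg, and 30 min later the brain was exposed to a 635 nm laser at 20 J/cm2, and tissue was collected 1.5, 12 or 48 h afterwards. This is photodynamic therapy (PDT): cells make protoporphyrin IX from the 5-ALA, and light makes this pigment react with oxygen. Controls have PBS in their titles and untreated as their label, and all groups were perfused with saline. The labels give no group with 5-ALA alone or light alone. The 1 control group, without a stated time, stands beside all 3 times. Parts of drug, light and time of day therefore cannot be told apart. For the strain the labels give BALB/c in one place and C57BL/6 in another, and they do not state the brain region, the age or sex of the mice, or whether each library came from a separate animal, so that p-values measure the spread between these libraries, which may be technical.

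Glycolysis splits glucose into pyruvate, and lactate dehydrogenase turns pyruvate into lactate when it does not enter the mitochondria. In the brain, neurons take up glucose mainly through the transporter encoded by Slc2a3, while astrocytes, endothelial cells and oligodendrocytes handle much of the glycolytic and lactate traffic. Hypoxia-inducible factor 1 (HIF-1) is a transcription factor whose alpha subunit, encoded by Hif1a, is marked for destruction by prolyl hydroxylases as long as oxygen is present, and its best known targets include many glycolytic genes and Adm.

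HIF-1 binds a short core, ACGTG or GCGTG. Both strands were searched, where the other strand of ACGTG reads CACGT and that of GCGTG reads CACGC, in the 250 bases before each RefSeq transcript start on GRCm38.p6. Each strand's match was counted, so that the palindrome CACGTG holds 2 overlapping matches. Windows of 5 genes on which the results turn are printed 5′ to 3′ on the strand of the gene, with the matched letters in capitals, to show where the core lies. Adm is at chr7:110627407-110627656 on the plus strand, Hk2 at chr6:82774455-82774704 on the minus strand, Slc16a3 at chr11:120948817-120949066 on the plus strand, Pfkfb3 at chr2:11502091-11502340 on the minus strand and Ldha at chr7:46845554-46845803 on the plus strand.
Adm: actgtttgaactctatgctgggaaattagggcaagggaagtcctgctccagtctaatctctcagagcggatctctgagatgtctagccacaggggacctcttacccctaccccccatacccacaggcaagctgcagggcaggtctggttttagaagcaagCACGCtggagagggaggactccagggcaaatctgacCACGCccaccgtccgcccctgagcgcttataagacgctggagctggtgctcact
Hk2: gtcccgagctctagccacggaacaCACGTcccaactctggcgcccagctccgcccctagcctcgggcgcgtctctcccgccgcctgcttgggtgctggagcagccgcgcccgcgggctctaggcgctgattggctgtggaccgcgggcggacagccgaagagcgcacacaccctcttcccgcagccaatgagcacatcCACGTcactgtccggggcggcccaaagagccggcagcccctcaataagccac
Slc16a3: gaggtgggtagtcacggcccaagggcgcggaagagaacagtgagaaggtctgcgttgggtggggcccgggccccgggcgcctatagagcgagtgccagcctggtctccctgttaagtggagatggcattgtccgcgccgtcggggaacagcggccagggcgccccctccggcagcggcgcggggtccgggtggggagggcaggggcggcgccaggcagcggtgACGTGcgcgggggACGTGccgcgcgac
Pfkfb3: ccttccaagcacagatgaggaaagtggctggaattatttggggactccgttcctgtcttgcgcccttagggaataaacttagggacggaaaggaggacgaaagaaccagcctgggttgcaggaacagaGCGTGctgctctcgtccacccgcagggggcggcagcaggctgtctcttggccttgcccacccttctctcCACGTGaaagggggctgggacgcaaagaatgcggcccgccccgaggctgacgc
Ldha: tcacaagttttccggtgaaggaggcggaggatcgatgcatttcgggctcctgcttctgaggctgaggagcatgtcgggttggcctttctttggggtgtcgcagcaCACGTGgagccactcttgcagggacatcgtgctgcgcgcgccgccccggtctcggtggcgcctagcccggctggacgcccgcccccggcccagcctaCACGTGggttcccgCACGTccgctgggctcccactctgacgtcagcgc
The window of Ldha held 5 matches, that of Pfkfb3 3, and those of Adm, Hk2 and Slc16a3 2 each. The matches of Adm were of the GCGTG kind, read on the other strand, while those of Hk2, Slc16a3 and Ldha in the windows printed were all of the ACGTG kind. Pfkfb3 and Ldha each have another window with 1 match, that of Ldha of the GCGTG kind. Of the 34 genes found in the RefSeq table, 30 (88.2%) had the core in at least 1 window and 17 had ACGTG. Among 27025 genes with a window, 41.5% had the core and 18.5% had ACGTG on either strand, and 38.6% of all 32851 windows had the core. The 7 genes that rose at 12 h and have a window all held the core, 4 of them as ACGTG. Pdk1, which fell, held it too, and Bnip3 had a window with 5 matches, as Ldha did. Neither Bnip3 nor Ldha was called against control. A match describes letters in these windows and not binding, and glycolytic genes were not compared with genes of like base composition. Slc2a3 had no entry.

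Expression is given as the deposited FPKM, fragment numbers that the authors divided by gene length and by a scaling total of the library. Groups are given as mean ± SD of 3 libraries. Changes are differences in log2(FPKM + 1) with their standard error (SE) from 1 limma fit of all 12 libraries. A gene is said to have risen, fallen or changed where its p, adjusted by Benjamini-Hochberg over all genes tested, was below 0.05. Positions of genes are on GRCm38. Reads recovered from the FPKM values came to 15348579 to 17444654 per library. The authors' scaling totals differed from these and ran from 12146484 in 1.5 h replicate 1 to 18782123 in 48 h replicate 4. They were 13991281 in 1.5 h replicate 3 and 18733503 in 48 h replicate 1. Recovered reads were 15709617 in 1.5 h replicate 1, 15348579 in replicate 3 and 16247614 in 48 h replicate 1. Replicates 1 and 3 of the 1.5 h group stood apart from the rest. Reads of mitochondrial transcripts made up 12.4% and 9.14% of these libraries, against 4.16% in the third 1.5 h library, replicate 2, and 4.16% to 6.02% in the controls. Their values also fell with gene length, with slopes of -0.104 and -0.06 log2 units per doubling, while slopes in the other 10 libraries lay between -0.009 and 0.041. One 12 h column carries a number that no title has and is called the unnumbered 12 h library.

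At 12 h Adm, Slc2a3, Pfkfb3, Pdk4, Hk2, Slc16a3, Egln3 and Gapdh rose and Pdk1 fell, and no other enzyme, regulator or hypoxia gene of the set was called against control. These 8 rises and 1 fall are 25.0% of the 36 rows, and 21.2% of all genes tested changed in the same comparison (13.3% rose and 7.9% fell). At 1.5 h no row changed by limma, where 0.555% of all genes did (0.419% higher and 0.136% lower). Of these rows, 12 were higher and 3 lower at an unadjusted p below 0.05, and voom on the recovered reads called 0 as well. The share of all genes at an unadjusted p below 0.05 is not given here or below. Such counts therefore cannot be read as a result about the set. At 48 h 3 rose and none fell, 8.33% of the rows, against 12.5% of all genes (7.5% rose and 5.01% fell). By limma and at an unadjusted p below 0.05, 7 rows were higher and 5 lower at 48 h. After adjustment voom called 4 higher and 1 lower, in a fit where 13.6% of all genes changed. The median change of the 36 rows was 0.25 at 1.5 h, 0.12 at 12 h and 0.12 at 48 h, beside 0.02, 0.0 and 0.0 for all genes tested. Genes with a control mean of at least 10 FPKM had a median log2 ratio, without a pseudocount, of 0.33, 0.06 and 0.21 in 1.5 h replicates 1, 2 and 3. In the 12 h and 48 h libraries it lay between -0.15 and 0.02. The 3 comparisons share the control libraries.

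Without 1.5 h replicate 2, the count at 1.5 h went from 0 to 18, with 15 higher and 3 lower, in a fit where 45.7% of all genes changed. The count at 48 h was 3, and it became 6 without 1.5 h replicate 1 (16.4% of all genes) and 11 without 1.5 h replicate 2 (23.6%), since all groups share 1 estimate of the spread. It was also 11 without 1.5 h replicates 1 and 3 together, in a fit where 26.5% of all genes changed.

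**Figure D1:**
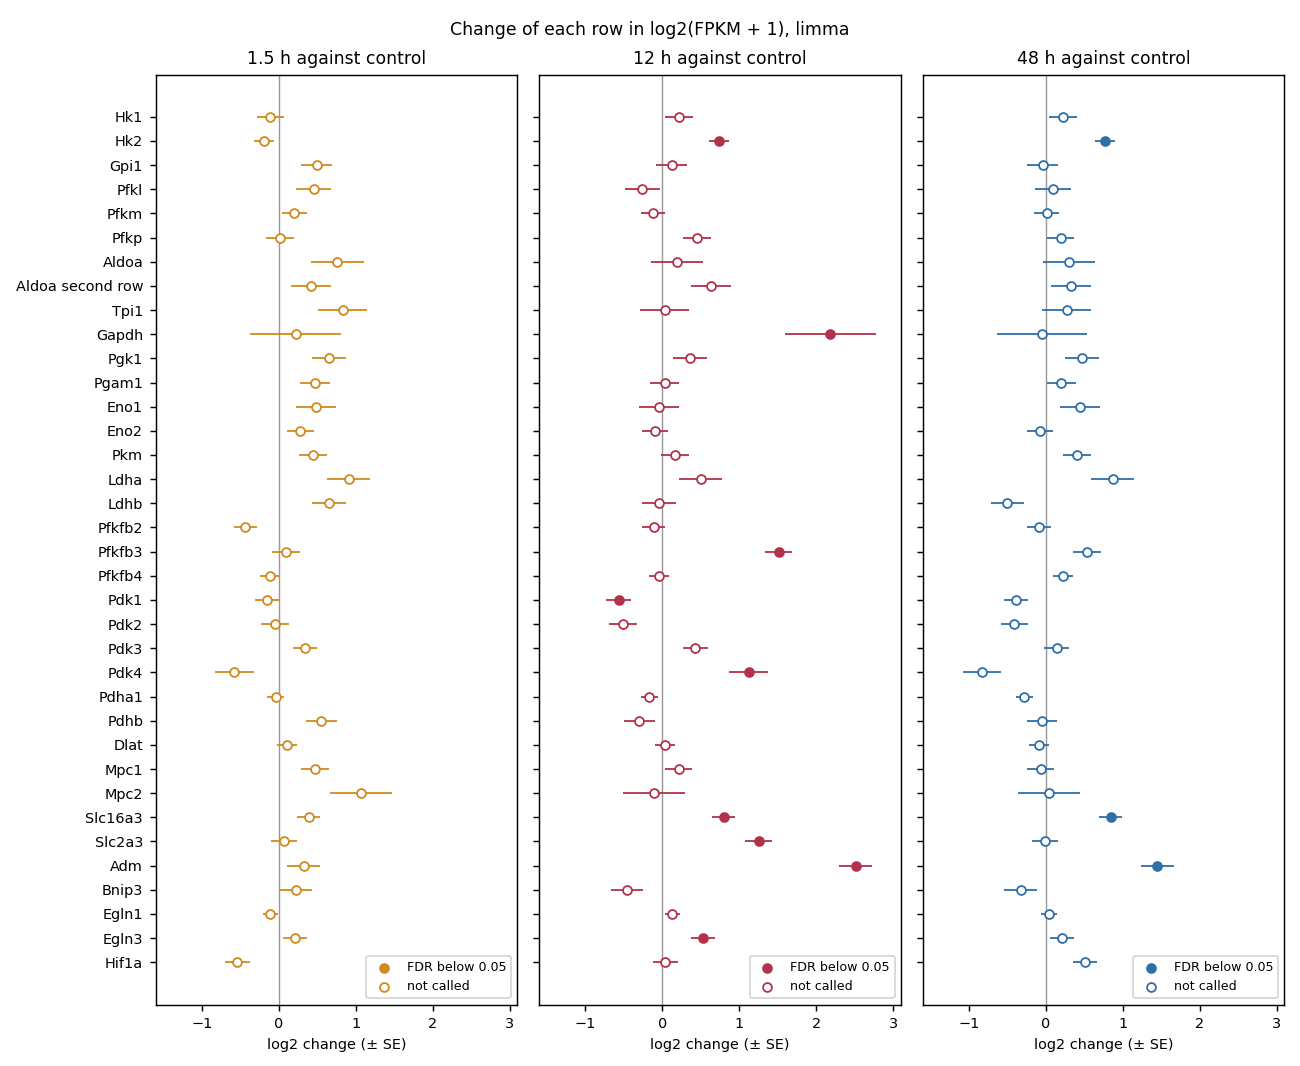
Difference in log2(FPKM + 1) of each of the 36 rows at 1.5 h, 12 h and 48 h against control (points, with SE bars from the limma fit); filled points passed a false discovery rate of 0.05. At 12 h 9 points are filled, with Adm farthest to the right at 2.51, at 48 h 3 are filled, and at 1.5 h none is.

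Adm encodes adrenomedullin, a secreted peptide that widens blood vessels and is a classical HIF target (ENSMUSG00000030790, chr7:110627661-110629820, protein-coding). In the controls its level was 0.642, 1.19 and 1.41 FPKM, and 1.5 h after PDT it was 1.93, 0.946 and 1.94 FPKM. At 12 h it reached 8.95, 10.2 and 13.3 FPKM, and at 48 h 3.82, 4.32 and 5.92 FPKM. All 12 h libraries were above all 48 h libraries, which in turn were above all control and 1.5 h libraries. The mean rose from 1.08 ± 0.397 to 10.8 ± 2.25 FPKM at 12 h, a ratio of 9.99 (log2 change 2.51 ± 0.22, adjusted p = 3.4e-05, limma), the largest rise among the 36 rows. It was 4.69 ± 1.1 FPKM at 48 h, a ratio of 4.33 (1.45 ± 0.22, adjusted p = 0.0016, limma), and lower than at 12 h (log2 change -1.05, adjusted p = 0.0083, limma). The gene rests on 18 to 343 recovered reads per library.

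Hif1a, the gene of the oxygen-regulated HIF subunit, did not follow Adm (ENSMUSG00000021109, chr12:73901375-73947530). The subunit is regulated mainly as a protein, which these data do not measure. Its level was 10.2, 10 and 9.96 FPKM in the controls, 4.92, 8.35 and 7.01 FPKM at 1.5 h, 9.5, 10.8 and 10.9 FPKM at 12 h and 16.1, 12.9 and 15.4 FPKM at 48 h. The 1.5 h libraries were all below the controls and the 48 h libraries all above them, while the 12 h libraries overlapped with the controls. Neither difference passed the test, with -0.54 ± 0.16 at 1.5 h (adjusted p = 0.089, limma) and 0.51 ± 0.16 at 48 h (adjusted p = 0.061, limma). The 48 h group was higher than the 1.5 h group by 1.04 (adjusted p = 0.0015, limma), and the overall test of 4 groups passed (adjusted p = 0.0037, limma), as it did for 10 of the 36 rows and 38.4% of all genes tested. Without 1.5 h replicate 2 the 1.5 h difference was -0.69 and passed (adjusted p = 0.0027, limma). It was -0.36 without replicate 1 (adjusted p = 0.27) and -0.24 without replicates 1 and 3 (0.65), the libraries with the most mitochondrial reads, and passed in neither. The 48 h difference passed without 1.5 h replicate 1 (adjusted p = 0.013, limma) and without replicate 2 (0.015), and stayed at 0.51 in both. It was also 0.51 without replicates 1 and 3. Of 19 alternatives, the 48 h difference passed in 5 and did not pass in 14. It ran from 0.44 to 0.6, with adjusted p up to 0.18 by limma.

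The prolyl hydroxylases that mark the HIF subunit are encoded by Egln1, the main oxygen sensor, and Egln3, itself a HIF target. Egln3 (ENSMUSG00000035105, chr12:54178981-54203860) was at 4.3, 4.7 and 3.93 FPKM in control libraries and 7.51, 6.35 and 6.11 FPKM at 12 h, with no overlap. The 1.5 h and 48 h libraries ran from 4.27 to 6.58 FPKM and overlapped with the controls. The rise at 12 h was 0.53 ± 0.16 (adjusted p = 0.037, limma). It did not pass without control replicate 1 (adjusted p = 0.098), 2 (0.068) or 4 (0.12), without 12 h replicate 1 (0.13), 2 (0.081) or the unnumbered library (0.064), or without 48 h replicate 4 (0.054), all by limma. Egln1 was at 19.9 ± 0.913 FPKM in control libraries and 21.8 ± 0.837 FPKM at 12 h (0.13 ± 0.1, adjusted p = 0.41, limma). Bnip3, a mitophagy receptor and HIF target, was not called against control at any time. Its mean was 30.2 ± 3.37 FPKM in controls, 35.8 ± 7.14 at 1.5 h, 21.8 ± 2.89 at 12 h and 24.4 ± 6.34 at 48 h, and the 12 h group was lower than the 1.5 h group (log2 change -0.68, adjusted p = 0.029, limma).

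**Figure D2:**
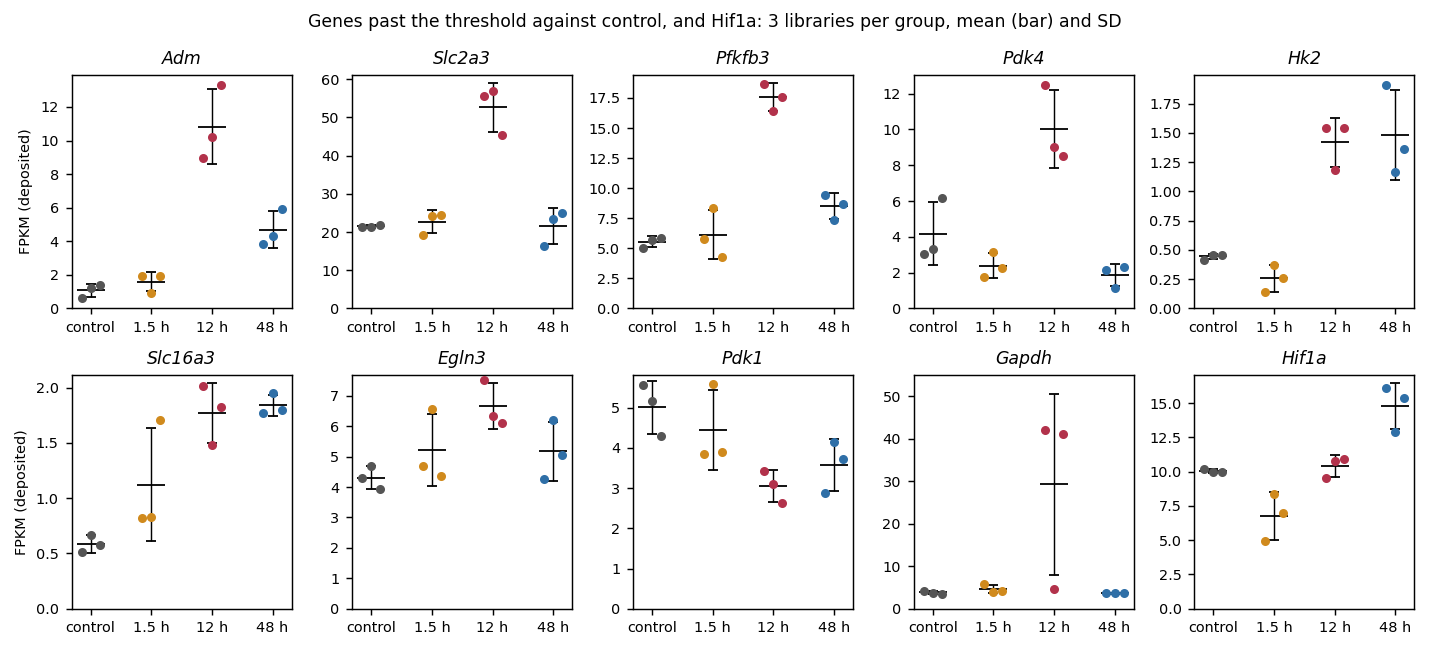
Deposited FPKM of the 9 genes past the threshold against control and of Hif1a in each of the 12 libraries (points), with the group mean (bar) and SD of 3 libraries. Adm, Slc2a3, Pfkfb3 and Pdk4 are highest at 12 h in all 3 libraries, Hk2 and Slc16a3 are high at both 12 h and 48 h, and Gapdh is high in 2 of the 3 libraries of the 12 h group.

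Slc2a3, the gene of the high-affinity glucose transporter GLUT3, rose at 12 h and was not called at 1.5 h or 48 h (ENSMUSG00000003153, chr6:122727809-122801640). It was at 21.2, 21.3 and 21.9 FPKM in control libraries and at 19.2, 24.3 and 24.5 FPKM at 1.5 h. At 12 h it was at 55.7, 57.0 and 45.3 FPKM and at 48 h at 16.3, 23.4 and 25.1 FPKM. The 12 h libraries were above all 9 others, and the 1.5 h and 48 h libraries straddled the controls. The mean went from 21.5 ± 0.366 to 52.7 ± 6.41 FPKM, a ratio of 2.46 (1.25 ± 0.17, adjusted p = 0.00048, limma). At 48 h the difference from control was -0.01 ± 0.17 (adjusted p = 0.97, limma), and the 48 h group was lower than the 12 h group (log2 change -1.26, adjusted p = 0.0007, limma).

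Slc16a3 encodes the lactate exporter MCT4, which is typical of highly glycolytic cells (ENSMUSG00000025161, chr11:120948480-120960868). Its level was low, at 0.511, 0.671 and 0.581 FPKM in control libraries and 0.82, 0.829 and 1.71 FPKM at 1.5 h. It was at 2.01, 1.48 and 1.82 FPKM at 12 h and at 1.77, 1.95 and 1.8 FPKM at 48 h, on 47 to 190 recovered reads per library. Every treated library was above every control. The rise was 0.8 ± 0.15 at 12 h (adjusted p = 0.004, limma) and 0.84 ± 0.15 at 48 h (adjusted p = 0.0049, limma), and ratios of the means were 3.01 and 3.13. At 1.5 h the difference of 0.39 ± 0.15 did not pass (adjusted p = 0.12, limma).

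Hexokinase traps glucose in the cell as glucose 6-phosphate. Hk1, the main brain form, was at 44.4 ± 3.1 FPKM in control libraries and at 41.6 ± 7.65, 52.1 ± 5.96 and 52.6 ± 10.6 FPKM at 1.5, 12 and 48 h, and no difference passed. Hk2, the inducible form (ENSMUSG00000000628, chr6:82725025-82774454), was at 0.416, 0.456 and 0.46 FPKM in control libraries and at 0.138, 0.369 and 0.263 FPKM at 1.5 h. It was at 1.54, 1.18 and 1.54 FPKM at 12 h and at 1.91, 1.17 and 1.36 FPKM at 48 h. The 1.5 h libraries were all below the controls, and the 12 h and 48 h libraries all above them. The differences were 0.74 ± 0.13 at 12 h (adjusted p = 0.0025, limma) and 0.77 ± 0.13 at 48 h (adjusted p = 0.0033, limma), with ratios of the means of 3.2 and 3.33. Hk2 passed the filter on low values, above 0.5 FPKM in at least 3 libraries, only through the 6 libraries in which it was high, so these calls carry less weight than the others, and it rests on 10 to 214 reads per library. At 1.5 h the difference was -0.2 ± 0.13 (adjusted p = 0.3, limma).

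Phosphofructokinase commits sugar to glycolysis, and the PFKFB enzymes make or remove fructose 2,6-bisphosphate, its strongest activator. Pfkfb3, the form whose kinase activity greatly exceeds its phosphatase activity, rose at 12 h (ENSMUSG00000026773, chr2:11471433-11554077). It was at 5.01, 5.73 and 5.88 FPKM in controls, 5.76, 8.32 and 4.3 FPKM at 1.5 h, 18.7, 16.4 and 17.6 FPKM at 12 h and 9.45, 7.33 and 8.68 FPKM at 48 h. All 12 h libraries were above the other 9, and the 48 h libraries were above the controls. The mean went from 5.54 ± 0.463 to 17.6 ± 1.15 FPKM, a ratio of 3.17 (1.51 ± 0.18, adjusted p = 0.00023, limma). At 48 h it was 8.48 ± 1.07 FPKM, and the difference of 0.53 ± 0.18 did not pass (adjusted p = 0.082, limma). Pfkfb2 and Pfkfb4 were at 4.08 ± 0.327 and 3.25 ± 0.528 FPKM in controls, and neither changed against control at any time. The 3 phosphofructokinase genes were not called against control either. Pfkp, the platelet form, had 12 h libraries of 34.5, 31.2 and 34.6 FPKM above control libraries of 24.5, 24.7 and 23.4 FPKM (0.45 ± 0.18, adjusted p = 0.11, limma).

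The balance of isozymes, enzymes that carry out the same step, was compared as the share of 1 gene in the summed FPKM of its family within a library, so that the scaling of the library cancels. Each of 12 shares was tested over the 4 groups with a 2-sided exact permutation test of 369600 arrangements, adjusted by Benjamini-Hochberg over the 12, because 3 libraries against 3 cannot go below p = 0.1. Of the 12, 6 passed. Shares of Pfkl, Pfkm and Pfkp add up to the whole, as do those of the Pdk genes, so tests within these families are not independent. The share of Pfkfb3 among the 3 PFKFB genes was 41.1%, 44.2% and 43.7% in controls, 52.7%, 55.6% and 44.6% at 1.5 h, 72.7%, 72.1% and 71.5% at 12 h and 52.5%, 50.5% and 53.7% at 48 h. All treated libraries were above the controls, and the 12 h libraries stood apart at 72.1% ± 0.627 (exact p = 0.0013, adjusted 0.0078). The share of Pfkp among Pfkl, Pfkm and Pfkp went from 12.9% ± 0.263 in controls to 18.5% ± 1.47 at 12 h (exact p = 0.0086, adjusted 0.021), but was spread from 7.99% to 15.4% at 1.5 h. This share no longer passed without the unnumbered 12 h library (exact test, adjusted p = 0.1) or control replicate 1 (0.052). Hk2 made up 0.994% ± 0.113 of the hexokinase pair in controls, 0.593% ± 0.173 at 1.5 h, 2.68% ± 0.573 at 12 h and 2.91% ± 1.4 at 48 h (exact p = 0.012, adjusted 0.025). It no longer passed without control replicate 1 (exact test, adjusted p = 0.052), 1.5 h replicate 1 (0.061) or 3 (0.059), or 12 h replicate 1 (0.065).

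**Figure D3:**
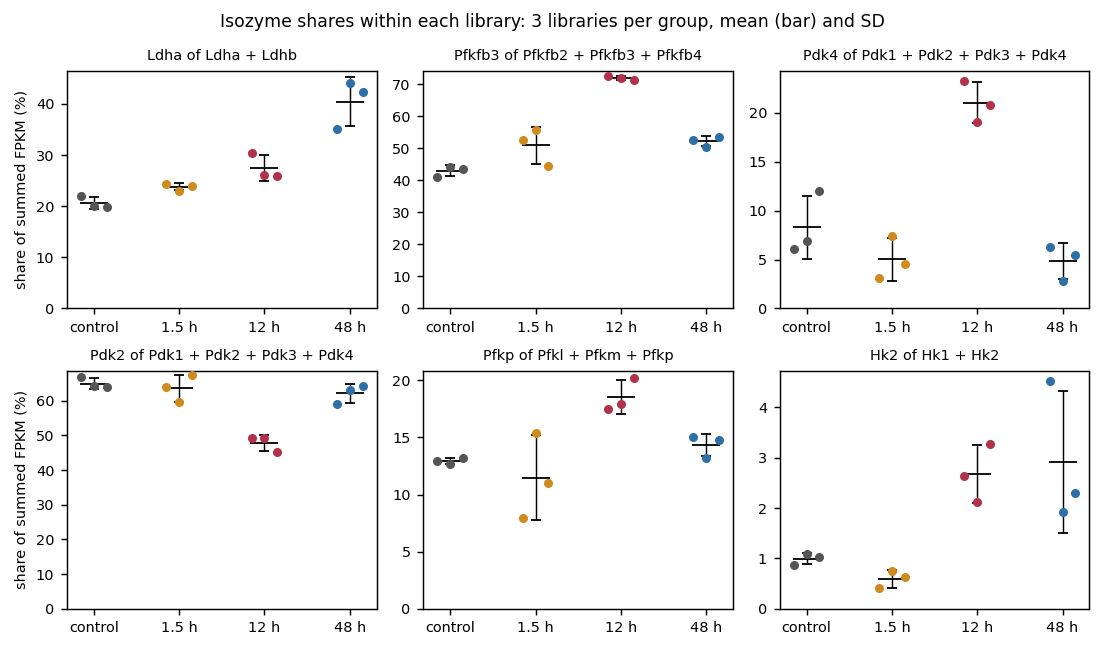
Share of 6 isozymes in the summed FPKM of their family in each of the 12 libraries (points, percent), with the group mean (bar) and SD. Ldha rises from 20.6% in controls to 40.4% at 48 h, Pfkfb3 and Pdk4 peak at 12 h at 72.1% and 21%, and Pdk2 is lowest at 12 h at 47.8%.

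Of the 12 shares, that of Ldha had the smallest p. Lactate dehydrogenase is built from the products of Ldha, the M subunit that prevails in glycolytic tissue, and Ldhb, the H subunit that prevails in oxidative tissue. Ldha was at 81.9, 80.2 and 77.5 FPKM in controls, 207, 103 and 162 FPKM at 1.5 h, 130, 111 and 102 FPKM at 12 h and 101, 192 and 165 FPKM at 48 h. Every treated library was above every control, yet no difference passed, with 0.91 ± 0.28 at 1.5 h (adjusted p = 0.091), 0.5 ± 0.28 at 12 h (0.23) and 0.87 ± 0.28 at 48 h (0.062), by limma. Ldhb was at 292, 320 and 315 FPKM in controls, 640, 344 and 514 FPKM at 1.5 h, 298, 314 and 292 FPKM at 12 h and 188, 245 and 224 FPKM at 48 h. It lay above the controls at 1.5 h and below them at 48 h, without a call against control, and the 48 h group was lower than the 1.5 h group (log2 change -1.15, adjusted p = 0.0061, limma).

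Within libraries, Ldha made up 21.9%, 20.0% and 19.8% of their sum in controls, 24.4%, 23.0% and 24% at 1.5 h, 30.4%, 26.1% and 25.9% at 12 h and 35.0%, 44.0% and 42.3% at 48 h. The controls, which have no stated time, were lowest, the treated groups rose with time, and the 4 groups did not overlap. Their means were 20.6% ± 1.16, 23.8% ± 0.712, 27.5% ± 2.51 and 40.4% ± 4.78 (exact permutation p = 6.5e-05, the smallest the design can give, adjusted 0.00078). Under the other settings the adjusted p of this test ran from 0.00078 to 0.0094. At 1.5 h the share varied less than either gene. The SD of the 1.5 h group was 52.2 FPKM on a mean of 157 for Ldha and 149 on a mean of 499 for Ldhb, and 0.712 percentage points on 23.8% for the share.

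Levels of the chain itself, from hexokinase to lactate dehydrogenase, depended on the library. For Hk1, Gpi1, Pfkl, Pfkm, Pfkp, Aldoa, Tpi1, Pgk1, Pgam1, Eno1, Eno2, Pkm, Ldha and Ldhb, 14 genes in all, the log2 ratio of each library to the control mean was taken without a pseudocount. Its median was 0.82, 0.11 and 0.55 in 1.5 h replicates 1, 2 and 3. Over the 4848 genes with a control mean of at least 10 FPKM the same median was 0.33, 0.06 and 0.21. In the 12 h libraries the median of the 14 was 0.08, 0.13 and -0.01, and in 48 h replicates 1, 3 and 4 it was -0.14, 0.42 and 0.38. Over all 4848 genes the 12 h libraries had -0.04, -0.03 and -0.07 and the 48 h libraries -0.15, 0.02 and 0.0. The 1.5 h libraries 1 and 3, in which the enzymes were highest, were also those with the most mitochondrial reads. They had the steepest trend with gene length and the smallest scaling totals as well. The part of these traits in the levels was not tested. In 48 h replicates 3 and 4 the slopes on gene length were -0.009 and 0.011.

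**Figure D4:**
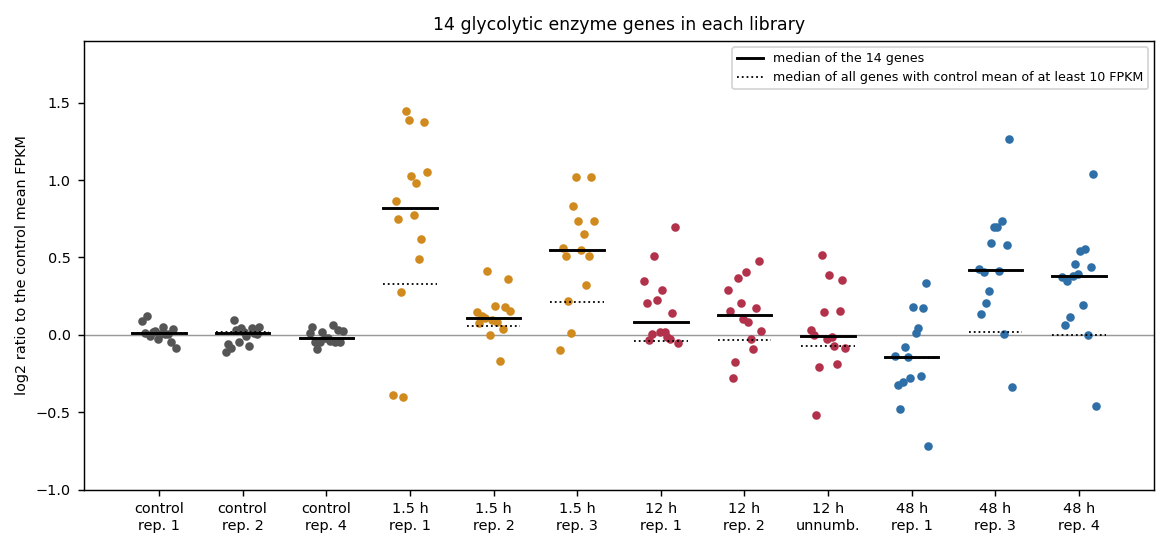
Log2 ratio of FPKM to the control mean for 14 glycolytic enzyme genes (points) in each of the 12 libraries, with their median (solid bar) and the median of all genes with a control mean of at least 10 FPKM (dotted bar). The median of the 14 genes is 0.82 and 0.55 in 1.5 h replicates 1 and 3, 0.42 and 0.38 in 48 h replicates 3 and 4, and between -0.14 and 0.13 in the other libraries.

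Of the 14 enzymes, 12, 10 and 12 were above all 3 controls in 1.5 h replicates 1, 2 and 3. The numbers were 7, 9 and 5 in the 12 h libraries and 3, 12 and 12 in 48 h replicates 1, 3 and 4. Below all 3 controls, in the same order, were 2, 1 and 0 at 1.5 h, 0, 3 and 6 at 12 h and 9, 1 and 1 at 48 h. The share of all genes outside the controls in single libraries is not given here. These counts therefore cannot be read as a result about the enzymes. Aldoa, which encodes the aldolase that splits fructose 1,6-bisphosphate, was at 617, 587 and 614 FPKM in controls, 1650, 605 and 1080 FPKM at 1.5 h, 709, 699 and 672 FPKM at 12 h and 549, 913 and 830 FPKM at 48 h. It was the most abundant of the 36 rows, and its 1.5 h mean of 1110 ± 523 FPKM rested on 2 of the 3 libraries (0.76 ± 0.34, adjusted p = 0.15, limma). The second Aldoa row (ENSMUSG00000114515, chr7:126800790-126809108) lay at 1.29 ± 0.528 FPKM in control libraries and was not called. Tpi1, triose phosphate isomerase, showed the same split, with 574, 234 and 444 FPKM at 1.5 h against 215, 226 and 216 FPKM in controls (0.83 ± 0.32, adjusted p = 0.12, limma). Pgk1, which makes the first ATP of the pathway, was the enzyme of the chain besides Pkm and Ldha whose libraries were above the controls at each time, with means of 178 ± 2.29, 287 ± 80.4, 228 ± 9.82 and 249 ± 43.8 FPKM in the 4 groups. Pkm, pyruvate kinase, was at 246 ± 6.86, 335 ± 51.1, 274 ± 2.94 and 326 ± 45.8 FPKM. None of these differences passed. Eno1 and Eno2, the general and the neuronal enolase, were at 81.0 and 223 FPKM in controls, and the share of Eno2 in their sum was 73.3% ± 1.49, 70.3% ± 5.09, 72.4% ± 0.7 and 65.5% ± 3.25 (exact permutation test, adjusted p = 0.083).

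Gapdh was an exception among the enzymes (ENSMUSG00000057666, chr6:125161715-125166467). It is one of the most abundant mRNAs of most cells, but the table gave it 4.21, 3.77 and 3.49 FPKM in controls, 5.8, 4.03 and 4.15 FPKM at 1.5 h, 42.1, 4.75 and 41.1 FPKM at 12 h and 3.77, 3.59 and 3.61 FPKM at 48 h. The mean of Aldoa in controls was 159 times that of Gapdh. Replicate 1 and the unnumbered library of the 12 h group were 8.86 and 8.64 times as high as 12 h replicate 2, with 2619 and 2703 recovered reads against 240 to 317 in the other 10 libraries. The nominal rise was 2.18 ± 0.59 (adjusted p = 0.023, limma), and it was lost without either library (1.69, adjusted p = 0.09 without replicate 1, and 1.71, adjusted p = 0.094 without the unnumbered one). It was also lost without control replicate 1 (adjusted p = 0.06), 2 (0.068) or 4 (0.066). Over the whole table Gapdh was the only gene with more than 10 FPKM in both of these libraries and more than 4 times its level in each of the other 10. How reads of Gapdh and its many near-identical copies were assigned is not given in the sources used here, so its values are uncertain.

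Copies of the glycolytic genes took up reads in the table. Of 18 rows named as copies or related sequences of these genes, 5 were at 0 in all libraries and 3 exceeded 10 FPKM in some library. Eno1b was at 86.2 FPKM in controls beside 81.0 FPKM for Eno1, Mpc1-ps was at 112 FPKM beside 8.78 FPKM for Mpc1, and Tpi-rs11 was at 13.9 FPKM beside 219 FPKM for Tpi1. Gapdh-ps14 did not exceed 0.115 FPKM in any library. Levels of Eno1, Mpc1 and Tpi1 are therefore uncertain where the counting could split reads between copies.

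Pyruvate dehydrogenase kinases switch off the enzyme complex that lets pyruvate into the mitochondrial cycle, and of the 4 genes 1 rose and 1 fell at 12 h. Pdk4, the form induced by fasting and glucocorticoids (ENSMUSG00000019577, chr6:5483351-5496309), was at 3.04, 3.31 and 6.19 FPKM in control libraries and 1.78, 3.14 and 2.26 FPKM at 1.5 h. It was at 12.5, 9.02 and 8.5 FPKM at 12 h and at 2.13, 1.15 and 2.29 FPKM at 48 h. The 12 h libraries were above the other 9 and the 48 h libraries below the controls. The rise at 12 h was 1.12 ± 0.25 (adjusted p = 0.0097, limma), a ratio of 2.39. The difference at 48 h was -0.83 ± 0.25 (adjusted p = 0.055, limma), and from 12 h to 48 h the gene fell by 1.95 on the log2 scale (adjusted p = 0.0006, limma).

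Pdk1, a HIF target in many cells (ENSMUSG00000006494, chr2:71873224-71903858), fell at 12 h. It was at 5.57, 5.17 and 4.29 FPKM in controls, 3.85, 5.59 and 3.91 FPKM at 1.5 h, 3.43, 3.11 and 2.62 FPKM at 12 h and 2.88, 4.15 and 3.73 FPKM at 48 h. All 12 h libraries were below all controls (log2 change -0.57 ± 0.16, adjusted p = 0.028, limma). The call was lost without control replicate 1 (adjusted p = 0.11) or 2 (0.09) and without 12 h replicate 2 (0.073) or the unnumbered library (0.11). Pdk2, the most abundant of the 4, was at 32.4 ± 1.52 FPKM in control libraries and 22.7 ± 4.03 FPKM at 12 h (-0.51 ± 0.18, adjusted p = 0.063, limma). Pdk3 was at 8.3 ± 0.305 and 11.5 ± 0.299 FPKM (0.43 ± 0.16, adjusted p = 0.09, limma), with no overlap. As a share of the 4 genes, Pdk4 went from 8.33% ± 3.22 in controls to 5.03% ± 2.18, 21% ± 2.08 and 4.86% ± 1.85 at the 3 times (exact permutation p = 0.0046, adjusted 0.018). Pdk2 was at 64.9% ± 1.6 in controls and 47.8% ± 2.37 at 12 h (exact permutation p = 0.0089, adjusted 0.021).

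No subunit of the pyruvate dehydrogenase complex or of the mitochondrial pyruvate carrier was called against control. Pdha1, the catalytic alpha subunit, had means of 39.9 ± 0.457, 38.9 ± 2.75, 35.3 ± 0.945 and 32.7 ± 2.73 FPKM in control libraries and at 1.5, 12 and 48 h, with the 12 h and 48 h libraries all below the controls (adjusted p = 0.31 and 0.12, limma). Pdhb, the beta subunit, was at 64.3, 37.3 and 62.0 FPKM at 1.5 h against 34.2, 37.0 and 36.6 FPKM in controls, and at 28.8, 29.2 and 29.1 FPKM at 12 h. The 12 h group was lower than the 1.5 h group (log2 change -0.85, adjusted p = 0.0098, limma). Dlat, the acetyltransferase subunit, stayed between 19.4 and 22.1 FPKM in group means. Mpc2, a carrier subunit, was at 48.5, 11 and 28.2 FPKM at 1.5 h and at 12.2, 12.3 and 9.7 FPKM in controls, so that replicates 1 and 3 were high and replicate 2 was inside the range of the controls (1.07 ± 0.4, adjusted p = 0.12, limma). Mpc1 was at 8.78 ± 1.03 FPKM in control libraries and 12.8 ± 3.53 FPKM at 1.5 h.

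Between the treated groups, 12 rows changed from 1.5 h to 12 h, 7 higher and 5 lower, where 33.2% of all genes tested changed (16.9% higher and 16.3% lower). From 12 h to 48 h 5 changed, all lower, beside 15.6% of all genes (5.88% higher and 9.73% lower), and none was higher by limma or by voom. These were Adm, Slc2a3, Pfkfb3, Pdk4 and Gapdh. From 1.5 h to 48 h 4 changed, with Adm, Hk2 and Hif1a higher and Ldhb lower, beside 17.8% of all genes (8.91% higher and 8.87% lower). The first of these counts was 28 without 1.5 h replicate 2 (54.7% of all genes), 7 without 1.5 h replicate 1 (21.4%), 7 without 12 h replicate 2 (21%) and 6 without the unnumbered 12 h library (20.8%). The last was 17 without 1.5 h replicate 2 (44.2%). The 12 h libraries did not overlap with the controls for 21 of the 36 rows, beside 54.4% of all genes. For 1.5 h it was 14 rows beside 26.6%, and for 48 h 14 rows beside 43.0%. Between treated groups 16 rows did not overlap from 1.5 h to 12 h (41.5% of all genes), 10 from 12 h to 48 h (43.6%) and 11 from 1.5 h to 48 h (27.9%).

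Other genes of these pathways were followed in 5 lists, whose counts stand beside 13.3% of all genes risen and 7.9% fallen at 12 h and 7.5% risen and 5.01% fallen at 48 h. Of 29 tested genes among other HIF pathway and hypoxia target genes, 9 rose and 1 fell at 12 h and 5 rose and 2 fell at 48 h. The list's median change was 0.09 at 1.5 h, 0.44 at 12 h and -0.07 at 48 h. Stc2, a secreted glycoprotein, went from 0.185 ± 0.0557 to 2.08 ± 0.205 FPKM at 12 h (1.38 ± 0.12, adjusted p = 3.2e-05, limma). It passed the filter on low values only through its 6 libraries of 12 h and 48 h. Vegfa, the main growth factor of vessels, rose from 14.9 ± 1.26 to 31.9 ± 2.59 FPKM at 12 h (1.05 ± 0.16, adjusted p = 0.00084, limma). Bnip3l, a relative of Bnip3, fell from 30.9 ± 1.44 to 20.0 ± 0.421 FPKM (log2 change -0.6 ± 0.1, adjusted p = 0.0021, limma). At 48 h Car12, a carbonic anhydrase, rose by 1.11 (adjusted p = 0.0045, limma) and Plod2, a collagen hydroxylase, by 0.87 (0.0067), while Hif3a (-0.86, adjusted p = 0.029) and Mxi1 (-0.48, 0.032) fell.

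In the list of transporters and regulators of pyruvate, lactate and glucose, 3 of 11 tested genes rose and 2 fell at 12 h, and 1 rose and 3 fell at 48 h. Slc16a1, the lactate transporter MCT1, rose from 7.36 ± 0.58 to 18.2 ± 2.66 FPKM at 12 h (1.19 ± 0.13, adjusted p = 9.6e-05, limma) and was at 13.2 ± 0.904 FPKM at 48 h (0.77, adjusted p = 0.0025, limma). Slc2a1, the glucose transporter GLUT1 of endothelium and glia, rose from 24.5 ± 3.93 to 52.2 ± 12.2 FPKM at 12 h (1.05 ± 0.21, adjusted p = 0.0054, limma). Txnip, which restrains glucose uptake, rose by 1.29 (adjusted p = 0.035, limma). Slc16a7, the neuronal lactate transporter MCT2, fell from 3.55 ± 0.378 to 2.24 ± 0.161 FPKM at 12 h and to 2.11 ± 0.265 FPKM at 48 h (adjusted p = 0.039 and 0.034, limma). Pcx, the pyruvate carboxylase of astrocytes, fell from 20.8 ± 0.646 to 15.8 ± 0.891 and 12.4 ± 1.67 FPKM (adjusted p = 0.037 and 0.0022, limma). Pdp1, a phosphatase that reactivates pyruvate dehydrogenase, fell at 48 h from 36.1 ± 5.94 to 19.1 ± 2.63 FPKM (adjusted p = 0.022, limma).

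Among other glycolysis genes, 2 of 13 tested rose and none fell at 12 h by limma or by voom, with 2 lower at an unadjusted p below 0.05. Pgm1, a phosphoglucomutase between glycogen and glycolysis, rose from 3.39 ± 0.262 to 8.06 ± 0.353 FPKM (1.05 ± 0.11, adjusted p = 0.00011, limma), and Hk3, the hexokinase of myeloid cells, by 0.74 (adjusted p = 0.043, limma). Hk3, at 0.176 FPKM in controls, passed the filter on low values only through the 12 h and 48 h libraries. At 48 h 3 rose, Hk3 by 1.18 (adjusted p = 0.007), Pgm1 by 0.72 (0.0018) and Adpgk by 0.45 (0.048), and 3 fell, by limma. Aldoc, the astrocyte aldolase, fell at 48 h from 187 ± 19.9 to 111 ± 5.6 FPKM (log2 change -0.74, adjusted p = 0.022, limma), as did Eno3, the muscle enolase (-0.53, adjusted p = 0.047, limma). In the pentose phosphate and glycogen list of 15, Pygm rose and Rpe fell at 12 h. At 48 h Pgd (0.63, adjusted p = 0.0044), G6pdx (0.57, 0.0065) and Ppp1r3c (0.93, 0.025) rose and Pygm fell (-0.68, 0.015), by limma. Pgd and G6pdx are the NADPH-making enzymes of the pentose phosphate pathway. Of 16 genes of the citric acid cycle, Dlst alone rose at 12 h (0.38, adjusted p = 0.024, limma) and none fell by limma or voom, with 1 lower at an unadjusted p below 0.05. At 48 h none passed by either tool, and none had an unadjusted p below 0.05 by limma. None of the 5 lists had a call at 1.5 h by limma or voom. At an unadjusted p below 0.05 by limma, 18 genes of the 5 lists were then higher, 8 of them in the citric acid cycle list, and 5 were lower. No share of all genes at this unadjusted p stands beside these counts.

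Markers of cell types moved alongside these genes. In bulk tissue, fewer cells of a type and less RNA per cell cannot be told apart. The summed level of 6 endothelial markers ran from 38.3 to 48.2 FPKM in controls, 34.0 to 41.1 at 1.5 h, 70.3 to 76.6 at 12 h and 71.6 to 98.3 at 48 h, with 3 markers risen and 1 fallen at 12 h and 2 risen at 48 h. Microglia markers ran from 78.2 to 84.3 FPKM in controls, 72.8 to 125 at 1.5 h, 46.5 to 49.0 at 12 h, where 4 of 6 fell, and 140 to 146 at 48 h, where 4 of 6 rose. Markers of neutrophils and monocytes summed to 0.205 to 0.863 FPKM in controls, 0.655 to 19.4 at 1.5 h, 5.57 to 20.6 at 12 h and 0.942 to 3.22 at 48 h. Only 2 of the 6 were tested, and these 2 rose at 12 h. With control sums this low, they could pass the filter on low values only with the help of treated libraries. Their calls therefore carry less weight. Of the defining markers of neutrophils and monocytes, Ly6g was at 0 in all control, 1.5 h and 12 h libraries, and Retnlg in all 48 h libraries. Neuron markers, which define the labelled tissue, ran from 734 to 924 FPKM in the control, 1.5 h and 12 h libraries and from 542 to 647 at 48 h, with 1 of 6 risen at 12 h. Astrocyte markers ran from 306 to 307 FPKM in controls, 237 to 335 at 1.5 h, 321 to 357 at 12 h and 217 to 267 at 48 h, with 2 of 6 risen at 12 h and 2 at 48 h. Oligodendrocyte markers ran from 807 to 943 FPKM in controls, 826 to 1410 at 1.5 h, 1320 to 1570 at 12 h and 571 to 1250 at 48 h, and none of 6 was called. Pericyte and smooth muscle markers ran from 23.2 to 25.1 FPKM in controls, 10 to 23.8 at 1.5 h, 21.1 to 24.2 at 12 h and 24.9 to 45.4 at 48 h. Of the 4 tested, 2 rose and 1 fell at 12 h and 2 rose at 48 h. Choroid plexus markers ran from 425 to 671 FPKM in controls, 3.16 to 443 at 1.5 h (median 6.89), 299 to 717 at 12 h and 32.9 to 995 at 48 h (median 130). Red blood cell markers ran from 0.781 to 30.1 FPKM in controls, 11.8 to 365 at 1.5 h, 9.33 to 56.5 at 12 h and 1.94 to 10 at 48 h. No marker of either kind was called. The part of these markers in the changes of the glycolysis and hypoxia genes was not tested.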

How the data were processed

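Whole-transcriptome RNA sequencing of mouse brain was deposited as 1 table of FPKM values for 54532 genes and 12 libraries, scaled by the authors, with gene length and coordinates per the file headers. The submitters' processing notes name Bowtie 0.12.2 and the build mm8. The counter, the annotation and whether strand was used are not given in the sources used here. Of 54409 gene identifiers shared with GENCODE M21, 98.33% matched in both start and end, and positions are therefore stated on GRCm38. Multiplying FPKM by gene length and dividing by the library's smallest unit gave whole reads for 100% of values (tolerance 0.05), the recovered reads.

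Genes above 0.5 FPKM in at least 3 libraries were tested, 17664 in all, as log2(FPKM + 1). The test was limma 3.58.1 (R 4.3.3, trended variance), with 4 groups in 1 fit (8 residual and 3.09 prior degrees of freedom), and Benjamini-Hochberg adjustment over all genes tested, with a threshold of 0.05. Changes of low genes are understated on this scale. Isozyme shares were tested by exact permutation over the 12 libraries, in Python 3.11.15. Of the columns, 11 match a title by number. The column of the 12 h group without such a match was assigned to its group alone. Libraries of 1 group correlated at 0.919 to 0.987 over genes, and no library was a copy of another.

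Shown for each library are the genes past the threshold against control in at least 1 comparison, with Hif1a, Gapdh and Slc2a3. Ldha, Ldhb, Aldoa, Pfkp, Tpi1, Pdhb and Mpc2 were added after their values were seen. From each list came up to 3 rising and 3 falling genes with the smallest p, and all where 5 or fewer passed. A few list genes counted in this way are left unnamed and not reported here. The genes, lists and alternatives were chosen with earlier results of these data known. Alternatives were a pseudocount of 0.1 FPKM, no filter, a correction for gene length, voom on recovered reads, a fit of only the 2 groups compared, a replicate block, leaving out each library, and leaving out 1.5 h replicates 1 and 3.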

Additional observations from a re-analysis of the deposited data

Results flagged for a closer look

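With groups of 3 libraries, single outlying libraries were not tested for. The following genes differed between times after PDT in a direct limma test of the difference, with p adjusted over all genes tested. Changes are in log2(FPKM + 1).

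From 1.5 h to 12 h, 7 of the 36 rows were higher and 5 lower, 33.3% of them beside 33.2% of all genes tested. Adm changed by 2.19 (adjusted p = 0.00012, limma), Pdk4 by 1.7 (0.00098), Pfkfb3 by 1.42 (0.00043), Slc2a3 by 1.18 (0.0008), Hk2 by 0.94 (0.00069) and Hif1a by 0.58 (0.018). Hk2 passed the filter on low values only through the 6 libraries of 12 h and 48 h, in which it was high. Gapdh changed by 1.96 (0.028), which rested on 2 of the 3 libraries at 12 h. Lower at 12 h than at 1.5 h were Mpc2, with a change of -1.18 (0.045), Pdhb with -0.85 (0.0098), Pfkl with -0.71 (0.039), Bnip3 with -0.68 (0.029) and Ldhb with -0.68 (0.038). For Mpc2, Pdhb, Pfkl, Bnip3 and Ldhb the 1.5 h mean lay above the control mean, and 1.5 h replicates 1 and 3 had the highest values. Mitochondrial reads were 12.4% and 9.14% in those libraries, and their part in these differences was not tested. Without 1.5 h replicate 1, 1 of these lower calls was left.

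From 12 h to 48 h, the change was -2.23 for Gapdh (adjusted p = 0.026, limma), -1.95 for Pdk4 (0.0006), -1.26 for Slc2a3 (0.0007), -1.05 for Adm (0.0083) and -0.97 for Pfkfb3 (0.0045).

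From 1.5 h to 48 h, the change was 1.13 for Adm (adjusted p = 0.0059, limma), 1.04 for Hif1a (0.0015), 0.97 for Hk2 (0.00079) and -1.15 for Ldhb (0.0061). For Hk2 the limit of the filter on low values holds here too.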

How the results depend on the processing

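The rises of Adm, Slc2a3, Pfkfb3, Pdk4 and Slc16a3 at 12 h and of Adm and Hk2 at 48 h passed under all 19 alternatives by limma, with adjusted p up to 0.0028, 0.0083, 0.0081, 0.047 and 0.042 at 12 h and up to 0.02 and 0.049 at 48 h. Hk2 passed the filter on low values only through the 6 libraries of 12 h and 48 h, so its calls carry less weight. Among the genes shown for the named-gene rule, no call changed direction under any of these alternatives. Over the genes shown in full, 332 of the repeated values kept their side of the threshold, 23 lost their call and 6 gained one. The calls of Egln3, Pdk1 and Gapdh at 12 h were lost in 9, 5 and 7 of 19.

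Counts of changed rows depended on the fit. With only the 2 groups compared, the count was 17 at 12 h instead of 9 (41.2% of all genes changed in that fit), 6 at 48 h instead of 3 (21.5%), 5 from 1.5 h to 12 h instead of 12 (13.5%) and 1 from 1.5 h to 48 h instead of 4 (3.16%). At 48 h it was 6 with the length correction and 5 with voom (13.6% of all genes in both). Without 1.5 h replicates 1 and 3 it was 11 at 48 h (26.5%) and 9 from 12 h to 48 h instead of 5 (30.6%). Leaving out 1 library at a time gave 0 to 18 at 1.5 h (0.0623% to 45.7% of all genes), 6 to 12 at 12 h (13.0% to 32.5%) and 3 to 11 at 48 h (6.83% to 23.6%). It gave 6 to 28 from 1.5 h to 12 h (19.3% to 54.7%), 4 to 7 from 12 h to 48 h (9.14% to 28.0%) and 4 to 17 from 1.5 h to 48 h (10.6% to 44.2%). In these fits 4 to 9 of the isozyme shares passed.

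The titles share replicate numbers, but same-numbered libraries did not deviate together (correlations of -0.264 to 0.156 over 11 pairs, median -0.004), so the numbers were not taken as pairs. With a replicate block, which drops the unnumbered library and leaves 4 residual degrees of freedom, 5 rows were called at 12 h (7.48% of all genes), 5 from 1.5 h to 12 h (6.42%), 2 from 12 h to 48 h (2.66%) and 2 from 1.5 h to 48 h (4.9%). Under the block Hk2 at 12 h had 0.68 (adjusted p = 0.075, limma) and Slc16a3 at 48 h 0.71 (0.068). Genes with few reads, such as Hk2 at 10 to 214 and Adm at 18 to 343, are limited by depth.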
